A study of Homo sapiens with 4 samples.

Results

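The proteasome genes of MKN28 cells, a human gastric adenocarcinoma line, are described here across 4 libraries of poly(A) RNA. The members were chosen by symbol alone, as every gene whose name starts with PSMA, PSMB, PSMC, PSMD, PSME, PSMF or PSMG followed by a digit, without PSMB8 and PSMB9. The rule found 47 genes among the 23362 entries of the deposited table. A measured value entered it only to pick 1 of 2 entries named PSMA1, the one with the higher mean level. One of them, PSMC3IP, shares only the start of its symbol, since it encodes a partner of meiotic recombinases and no proteasome subunit. It is kept as a member and given apart.

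Each group was 1 library. The Luc cells carried luciferase as the general control, the WT cells carried KIAA1324, the 3NQ cells carried KIAA1324 with asparagine changed to glutamine at 3 putative N-glycosylation sites, and the ΔTM cells carried KIAA1324 without its transmembrane domain. All 4 lines were made from the same parent line with a retroviral, doxycycline-dependent (tet-on) system, tagged with HA in the KIAA1324 constructs, and were selected with drugs. The sources used here do not state whether a line is 1 clone, nor whether the cells received doxycycline ahead of RNA extraction. With no replicates there is no test, no standard error and no p-value, and a difference between libraries may be one of constructs, of cultures or of library preparation, which cannot be told apart. The KIAA1324 level in FPKM (mapped fragments scaled to transcript length and library size) was 2.86 (Luc), 11185 (WT) and 8197 (3NQ), whereas it was listed at 0 under the ΔTM label, so that sample is called the library labelled ΔTM. The epithelial markers EPCAM, KRT8, KRT18, KRT19 and CLDN4 summed to an FPKM between 7689 and 13367 per library, the 4 fibroblast markers to between 12.2 and 15.4, nearly all of it COL1A1, the 4 leukocyte markers to between 4.46 and 5.84, nearly all of it CD68, and the endothelial markers CDH5 and VWF to between 0.226 and 0.426. CD3E was listed at 0 in every library.

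The proteasome degrades proteins marked with ubiquitin in the cytosol and nucleus, including those withdrawn from the endoplasmic reticulum. Its core particle is a barrel of α rings and β rings, and only β1, β2 and β5 carry active sites, which face the inside. The regulatory particle caps the barrel, with a base of ATPases that unfolds the substrate and a lid that removes its ubiquitin. Dedicated chaperones build both parts, and the transcription factor NFE2L1 can raise the genes of all subunits together when the proteasome is inhibited. The study used a proteasome inhibitor to follow the stability of non-glycosylated KIAA1324, and the transcripts below are those of the machinery that such an inhibitor blocks.

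Of the 47 members, 45 reached an FPKM of 1 in 1 or more libraries, and each of these 45 exceeded 5 in every library, so none entered through a single group. PSMA8, the testis paralog of α4, and PSMB11, the thymus paralog of β5, were listed at 0 in all 4 libraries. The median FPKM of the 45 members was 125 (Luc), 127 (WT), 126 (3NQ) and 128 (library labelled ΔTM). Together they made up 1.21%, 1.18%, 1.18% and 1.26% of all FPKM in that order. All FPKM here includes KIAA1324, at 11185 of 564545 in WT and 8197 of 585104 in 3NQ, which lowers the share in both. In bulk RNA, fewer cells with a transcript and less of it per cell cannot be told apart. The member with the highest FPKM was PSMD2 in each library and that with the lowest was PSMG4, and 30 or 31 members reached an FPKM of 100.

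**Figure D1:**
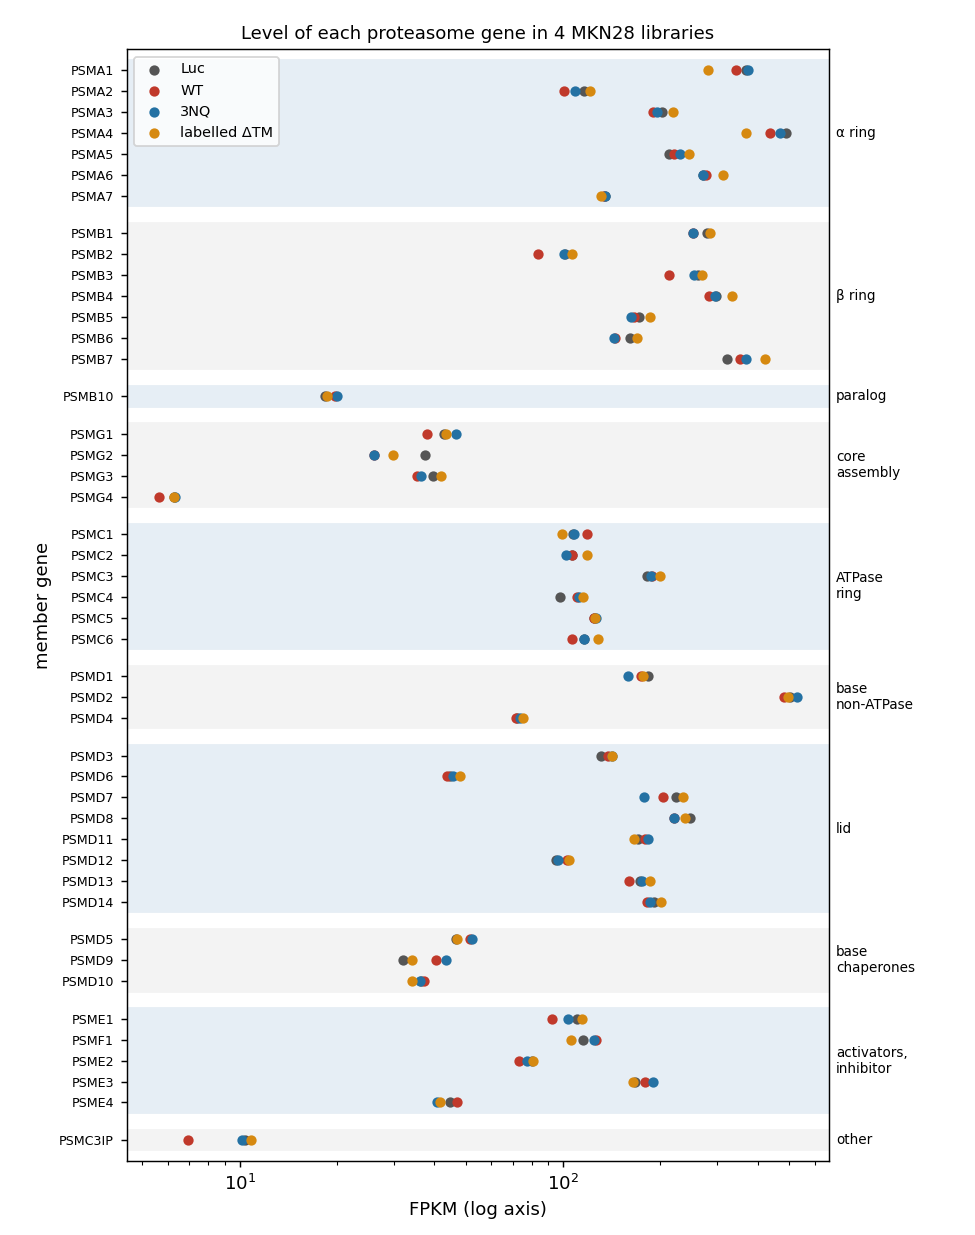
Each row is 1 member passing the filter, grouped by subcomplex, and each point is its FPKM on a log axis in the Luc, WT or 3NQ library or the library labelled ΔTM (1 library each). Points of 1 gene lie close together, whereas genes range from PSMG4 (5.62 in WT) to PSMD2 (528 in 3NQ).

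No proteasome gene differed by 1.5-fold between any pair of the 4 libraries. The ratio was that of FPKM + 1, which understates the change of low genes, on a log2 scale. PSMC3IP, the low member outside the proteasome, was also within 1.5-fold on this scale, but not on every other: without a pseudocount, a choice made after seeing the data, its log2 ratio in WT was −0.65 to the library labelled ΔTM and −0.59 to Luc, with the threshold at 0.58. Among all 11769 entries that reached an FPKM of 1 in a library, 6.7% passed 1.5-fold between WT and Luc, 4.34% between 3NQ and Luc and 3.11% between the library labelled ΔTM and Luc, compared to 0 of the 45 members in each. Between the KIAA1324 libraries, 4.47% of all entries passed it for WT against 3NQ, 7.16% for WT against the library labelled ΔTM and 3.34% for 3NQ against that library, again compared to 0 of 45 members. With shares of 3.11% to 7.16%, 45 genes taken at large would hold only a few such genes. The members are also abundant, and of the 4183 entries that reached an FPKM of 30, a limit chosen after seeing the data, 5.52% passed (WT), 3.59% (3NQ) and 2.8% (library labelled ΔTM), whereas 0 of the 42 members above that limit did. For the pairs without Luc, in the order above, these shares were 3.06%, 6.19% and 2.65%, again beside 0 of 42 members.

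The log2 ratios of the members to Luc had an SD across genes of 0.17 for WT and 0.15 for both 3NQ and the library labelled ΔTM, compared to 0.42, 0.38 and 0.37 for all entries, whose SD also holds a few genes with very large ratios. In WT, 39 of the 45 members lay within 0.2 of Luc (86.7%, compared to 56.0% of all entries). The same share was 91.1% compared to 62.5% in 3NQ, and 86.7% compared to 68.7% in the library labelled ΔTM. Among genes that reached an FPKM of 30 the gap was smaller in the last, with 85.7% of 42 members compared to 75.7% of entries, and it was 88.1% compared to 61.7% in WT and 90.5% compared to 69.4% in 3NQ.

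**Figure D2:**
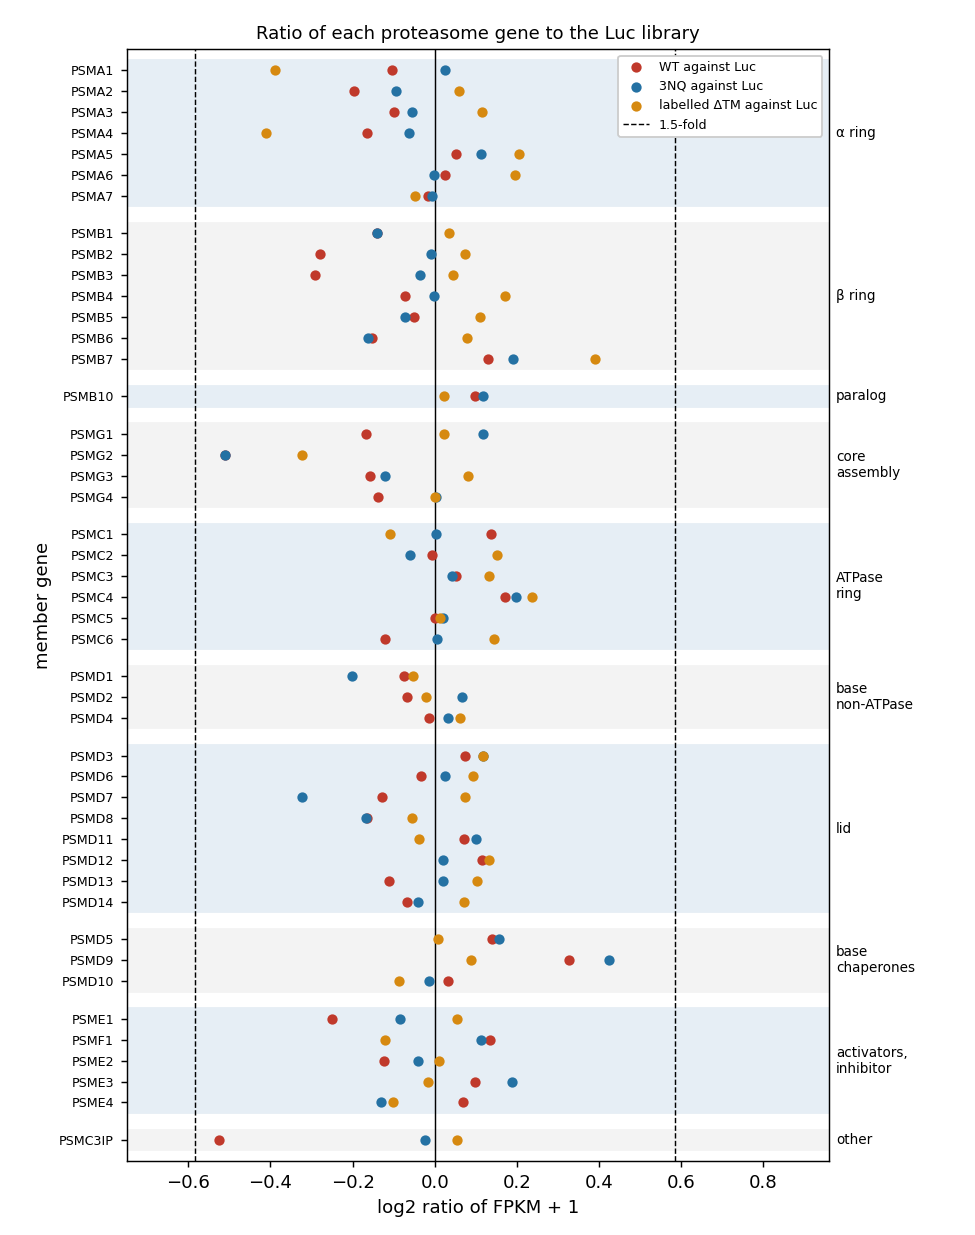
Each row is 1 member passing the filter and each point is its log2 ratio of FPKM + 1 to Luc, for WT, 3NQ and the library labelled ΔTM. All points lie inside the dashed lines at 1.5-fold, and those farthest out are PSMC3IP in WT (−0.52) and PSMG2 in WT and 3NQ (−0.51 each).

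Small differences nevertheless had a direction in WT and in the library labelled ΔTM, whereas in 3NQ it depended on library scaling. The median log2 ratio of the members was −0.067 (WT), −0.0014 (3NQ) and 0.055 (library labelled ΔTM), and that of all entries was −0.0049, −0.038 and −0.060. In WT, 17 of the 45 members were above Luc (37.8%, compared to 49.1% of all entries), 22 were for 3NQ (48.9%, compared to 43.0%), and 32 for the library labelled ΔTM (71.1%, compared to 37.0%). The comparisons share the Luc library. The counts of members depend on library scaling. After scaling by median ratios or by upper quartiles they were 18 or 16 (WT), 29 or 27 (3NQ) and 38 or 34 (library labelled ΔTM). In 3NQ, 7 or 5 members changed sign. The shares of all entries would move as well and were not recomputed. The median of the members minus that of all entries, which a change of library scaling hardly moves, was −0.062 (WT), 0.036 (3NQ) and 0.12 (library labelled ΔTM). Among genes that reached an FPKM of 30, these differences were −0.044, 0.018 and 0.11 in that order. Of the 42 members above that limit, 38.1%, 47.6% and 69.0% were above Luc, compared to 47.4%, 45.6% and 38.0% of entries. WT against the library labelled ΔTM, a pair without Luc, had a median of −0.14 over the members, with 33 of 45 below 0, and a median of 0.047 over all entries.

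The library labelled ΔTM held the highest of the 4 FPKM for 26 members (57.8%), compared to 16.8% of all entries and 18.0% of those that reached an FPKM of 30. WT held the lowest for 18 members (40.0%, compared to 26.7% of all entries and 30.1% of those that reached an FPKM of 30) and the highest for 4. These are orders among 4 single libraries, most of them by steps far smaller than 1.5-fold. They also depend on scaling. By median ratios or upper quartiles, 30 or 28 members were highest in the library labelled ΔTM. Under the same scalings, 23 or 24 were lowest in WT.

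**Figure D3:**
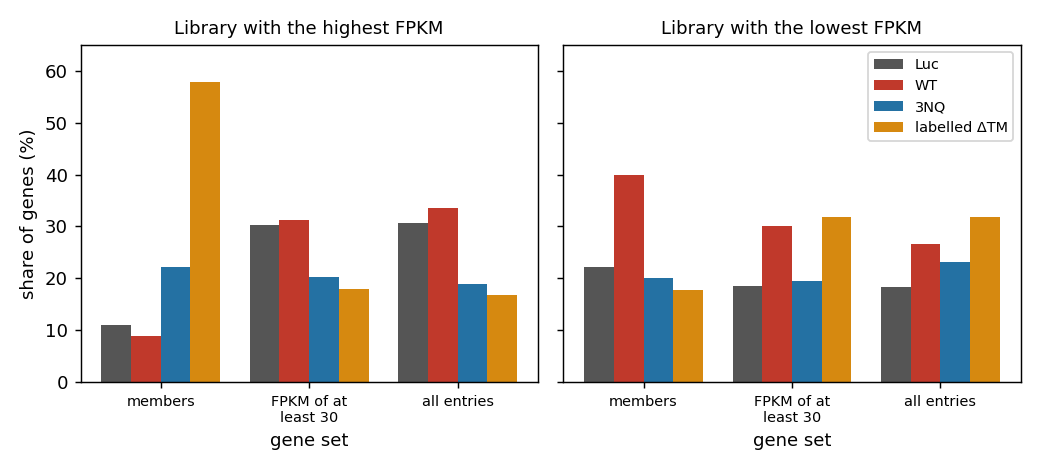
Bars give the share of genes (%) whose highest (left) or lowest (right) FPKM fell in each of the 4 libraries, for the 45 members, the 4183 entries that reached an FPKM of 30 and all 11769 entries. For the members, the bar of the library labelled ΔTM reaches 57.8% on the left and that of WT 40.0% on the right.

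The spread of a gene, its highest minus its lowest log2(FPKM + 1) over the 4 libraries, had a median of 0.21 among the members, 0.27 among the entries that reached an FPKM of 30 and 0.31 among all entries. It was under 0.2 for 20 members (44.4%, compared to 23.1% of all entries and 30.7% of those that reached an FPKM of 30). PSMC5, PSMA7, PSMD4, PSMB10 and PSMD3 had the narrowest spreads, and PSMC3IP (0.58), PSMG2 (0.51), PSMD9 (0.43), PSMA1 (0.42) and PSMA4 (0.41) the widest. The widest of these, 0.58 for PSMC3IP, lay at percentile 84.8 of all entries, whereas that of PSMC5 (0.020) lay at percentile 0.042.

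**Figure D4:**
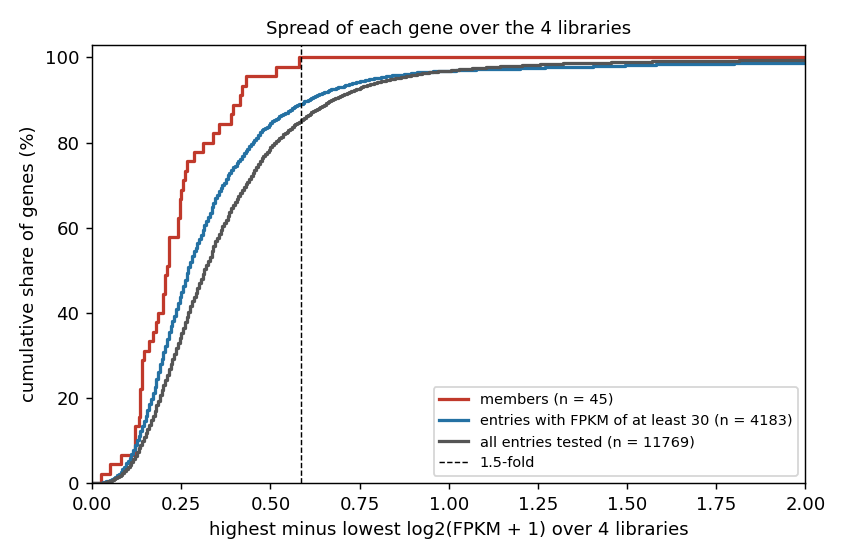
The x axis is a gene's highest minus lowest log2(FPKM + 1) over the 4 libraries and the y axis the cumulative share of genes (%), for the 45 members, the 4183 entries that reached an FPKM of 30 and all 11769 entries. From a spread of 0.2 on, the curve of the members lies above the others, and it ends before the dashed line at 1.5-fold, which 14.7% of all entries reach.

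The members' promoters were searched for the core of the antioxidant response element, the site NFE2L1 binds, written here as TGACNNNGC on either strand, in the 250 bases before the start site. RefSeq promoters on GRCh38.p14 were matched for 41 of the 47 members and not for PSMA7, PSMB1, PSMB6, PSMB7, PSMD4 and PSMG3. Counting each of the 50 start sites of the 41 members, 24.0% held the motif, compared to 10.9% of the 35116 promoters of all genes, and CCAAT stood in 40.0% compared to 32.0%. No match of one motif overlapped a match of the other in these 50. The genes with the first motif were PSMA4, PSMB3, PSMC5, PSMD3, PSMD5, PSMD9, PSMD12, PSME1, PSME2, PSME4, PSMG1 and PSMG2, and a match of these letters is not a measured binding site. Below are the stretches around the matches for the members among the 5 narrowest and 5 widest spreads that held it, each 5′ to 3′ on the plus strand, which is the strand of all 5 genes, with the matches in capitals. A start site was taken per gene, that with the match. The stretches lie at chr15:78540630-78540698 (PSMA4), chr17:63827634-63827702 (PSMC5), chr17:39980740-39980806 (PSMD3), chr12:121888611-121888726 (PSMD9, 2 matches) and chr18:12658669-12658737 (PSMG2).
PSMA4: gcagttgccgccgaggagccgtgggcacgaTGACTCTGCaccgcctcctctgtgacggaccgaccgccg
PSMC5: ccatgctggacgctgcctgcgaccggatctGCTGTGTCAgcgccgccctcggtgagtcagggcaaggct
PSMD3: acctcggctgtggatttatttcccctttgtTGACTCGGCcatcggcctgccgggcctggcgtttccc
PSMD9: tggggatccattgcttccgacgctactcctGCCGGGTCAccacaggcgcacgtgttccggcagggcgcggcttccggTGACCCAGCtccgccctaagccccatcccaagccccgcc
PSMG2: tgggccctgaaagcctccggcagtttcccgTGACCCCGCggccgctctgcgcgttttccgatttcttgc

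The motif was thus found both before genes with the narrowest spread (PSMC5 and PSMD3) and before genes with the widest (PSMA4, PSMD9 and PSMG2). The match of PSMC5 and 1 of those of PSMD9 lie on the opposite strand, so that their capitals show the reverse complement.

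The α ring forms the outer rings of the core particle and its gate. Its 7 genes had FPKM between 101 (PSMA2 in WT) and 489.5 (PSMA4 in Luc). PSMA4, which encodes α3 (ENSG00000041357, chromosome 15 from 78832747 to 78841604 on the plus strand of GRCh37), had an FPKM of 489.5 (Luc), 437 (WT), 469 (3NQ) and 368 (library labelled ΔTM). The log2 ratios to Luc were −0.16, −0.063 and −0.41. The last library was the lowest of the 4, and the others did not reach down to it. PSMA1, which encodes α6, was likewise lowest there, with 368 (Luc), 343 (WT), 374 (3NQ) and 281 (library labelled ΔTM), a ratio of −0.39 in the last. The symbol PSMA1 has another entry nested in the first, with an FPKM of at most 1.14, and adding it moved no ratio by more than 0.0040.

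Of the other α genes, only PSMA7 was also lowest in the library labelled ΔTM, by a ratio to Luc of just −0.047. PSMA5 (α5) had an FPKM of 213, 221, 230.5 and 246 in Luc, WT, 3NQ and the library labelled ΔTM, in the order kept from here on. PSMA6 (α1) had 272, 277, 272 and 312, and both were highest in the library labelled ΔTM, by ratios to Luc of 0.21 and 0.20. PSMA2 (α2), the least abundant of the ring, had 116, 101, 109 and 121, and PSMA3 (α7) 203, 189, 195 and 219.5, both lowest in WT. PSMA7 (α4) kept nearly 1 value, 135, 134, 135 and 131. In the library labelled ΔTM, the median ratio of the 7 genes was 0.059 but the ratio of their summed FPKM was −0.099, because PSMA4 and PSMA1, the 2 most abundant in Luc, were both below Luc.

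The β ring holds the active sites. Its 7 genes all had their highest FPKM in the library labelled ΔTM, with log2 ratios to Luc from 0.035 (PSMB1) to 0.39 (PSMB7). Both rescalings raised that library relative to the others, so they could not have changed this. Relative to that library, the 7 genes had ratios from −0.35 to −0.16 in WT and from −0.24 to −0.081 in 3NQ.

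PSMB7, which encodes the trypsin-like β2 (ENSG00000136930, chromosome 9 from 127115745 to 127177723 on the minus strand), had the highest level of the ring, an FPKM of 321 (Luc), 351 (WT), 367 (3NQ) and 421 (library labelled ΔTM). Luc was the lowest of the 4, and the ratios to it were 0.13, 0.19 and 0.39. PSMB6, the caspase-like β1, had 161, 144, 143 and 169.6, and PSMB5, the chymotrypsin-like β5 that most proteasome inhibitors bind, had 171, 165, 163 and 185. The transcripts of the 3 active subunits were therefore unequal, with 2.00, 2.43, 2.56 and 2.48 times as much PSMB7 as PSMB6 per length, and 1.07, 1.15, 1.13 and 1.09 times as much PSMB5 as PSMB6. Relative to PSMA4 in the same library, PSMB7 stood at 0.656, 0.805, 0.783 and 1.14. In the library labelled ΔTM, PSMB7 had the highest β ratio to Luc and PSMA4 the lowest α ratio. The pair therefore does not stand for the rings, whose median ratios there were 0.078 (β) and 0.059 (α).

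Among the β subunits without an active site, PSMB2 (β4), PSMB3 (β3) and PSMB4 had their lowest value in WT. PSMB2 had an FPKM of 102, 83.5, 101 and 107 and a ratio of −0.28 in WT, compared to −0.0095 in 3NQ. PSMB3 had 261, 213, 255 and 269.7 and ratios of −0.29 and −0.036. In PSMB2 and PSMB3, WT stood apart from the other libraries, which lay close together. PSMB1 (β6) had 278, 253, 252 and 285, with WT and 3NQ alike and below the others, and PSMB4 (β7) had 296, 282, 296 and 333.

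Of the alternative catalytic subunits within the rule, only PSMB10 was measured above 0. It encodes β2i, which takes the place of β2 in the immunoproteasome of interferon-treated and immune cells. Its FPKM was 18.4, 19.7, 20.0 and 18.7, a spread of 0.12, and it amounted to 5.72%, 5.62%, 5.45% and 4.44% of the FPKM of PSMB7, its constitutive counterpart.

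The core is built on chaperones in 2 pairs, PSMG1 with PSMG2 and PSMG3 with PSMG4, which guide the α ring. All 4 genes had their lowest FPKM in WT, though for PSMG2 the value in 3NQ was nearly the same. PSMG2 (ENSG00000128789, chromosome 18 from 12702425 to 12725739 on the plus strand) had an FPKM of 37.5 (Luc), 26.0 (WT), 26.0 (3NQ) and 29.8 (library labelled ΔTM), so Luc was above all 3 others, and the ratios were −0.51, −0.51 and −0.32. Another entry, RP11-973H7.2, covers the whole of PSMG2 on the same strand, with an FPKM of 4.0e-05, 2.68, 8.18 and 2.04, and reads of the pair cannot be told apart where their exons coincide. When both were added, a choice made after seeing the data, the sums were 37.5, 28.7, 34.2 and 31.8 and the ratios −0.38, −0.13 and −0.23, so that the ratio of 3NQ depends on whether the entries are taken apart or together.

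Its partner PSMG1 did not follow it, with an FPKM of 42.9, 38.1, 46.6 and 43.6. PSMG2 was 0.874, 0.683, 0.558 and 0.683 times PSMG1. PSMG3 had 39.6, 35.4, 36.3 and 41.9, and PSMG4, the member with the lowest level, 6.29, 5.62, 6.31 and 6.29. PSMG4 overlaps SLC22A23 over 34412 bases on the opposite strand, and strand was not stated to be used in counting.

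The 6 ATPases of the base, which unfold and push the substrate into the core, were the most even subcomplex of those with more than 3 genes, with FPKM between 97.6 and 199 over all libraries. PSMC5 (Rpt6) had an FPKM of 125, 125, 126 and 126, the narrowest spread of all members. PSMC4 (Rpt3) was lowest in Luc, with 97.6, 110.1, 112 and 115 and ratios of 0.17, 0.20 and 0.24. PSMC3 (Rpt5), the most abundant, had 181, 188, 187 and 199.

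The remaining ATPases differed in order. PSMC1 (Rpt2) had 108, 118, 108 and 99.6 and was the only ATPase gene highest in WT, by a ratio of 0.14. PSMC2 (Rpt1) had 107, 106, 102 and 119 and PSMC6 (Rpt4) 116, 107, 117 and 128, both highest in the library labelled ΔTM. Over the 6 genes the median ratio was 0.027 (WT), 0.013 (3NQ) and 0.14 (library labelled ΔTM).

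The non-ATPase subunits of the base dock ubiquitin and its carriers. PSMD2 (Rpn1), the scaffold that binds shuttle factors, was the most abundant member with an FPKM of 505, 481, 528 and 497. Its scaffold counterpart PSMD1 (Rpn2) had 183, 174, 159 and 176 and was lowest in 3NQ, by a ratio of −0.20. PSMD4 (Rpn10), a ubiquitin receptor, was the least abundant of the 3 with 72.1, 71.4, 73.8 and 75.3, and its spread was 0.076. The span of PSMD2 lies wholly inside an entry for EIF2B5 on the same strand, whose FPKM was between 35.5 and 40.7.

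The lid had 8 genes, 6 of them highest in the library labelled ΔTM. PSMD14 (Rpn11), the deubiquitinase that strips ubiquitin chains before degradation, had an FPKM of 191, 182, 186 and 201. PSMD7 (Rpn8), its partner, had 223, 204, 178 and 235, and 3NQ was the lowest, with a ratio to Luc of −0.32 and to the library labelled ΔTM of −0.39. This was the largest difference within the lid. PSMD8 (Rpn12), the most abundant lid gene, had 248, 221, 220.5 and 238, and PSMD6 (Rpn7), the least abundant, 44.8, 43.8, 45.6 and 47.9.

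PSMD3 (Rpn3) had an FPKM of 131, 138, 142 and 142, lowest in Luc, with a spread of 0.12. PSMD11 (Rpn6), PSMD12 (Rpn5) and PSMD13 (Rpn9), further scaffold subunits of the lid, had FPKM between 95.0 and 186, and their ratios to Luc lay between −0.11 and 0.13 in all 3 libraries.

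The chaperones of the base had no common order. PSMD9 (p27; ENSG00000110801, chromosome 12 from 122326637 to 122356203 on the plus strand) had an FPKM of 32.1 (Luc), 40.5 (WT), 43.4 (3NQ) and 34.2 (library labelled ΔTM), with ratios of 0.33, 0.43 and 0.089. WT and 3NQ were thus above Luc and the library labelled ΔTM, and PSMD9 held the highest member ratio in both. An overlapping same-strand entry, RP11-87C12.2, had an FPKM of at most 2.66, and with it added the ratios were 0.33, 0.41 and 0.048. PSMD5 (S5b) had the same order at a smaller size, 46.7, 51.6, 52.2 and 47.0. PSMD10 (gankyrin), also known for binding RB and MDM2, had another, 36.4, 37.3, 36.1 and 34.2. PAAF1, a base chaperone outside the symbol rule, was lowest in WT and highest in the library labelled ΔTM. Among members that are not chaperones, PSMB10, PSMC1, PSMD11, PSME3 and PSMF1 also had WT and 3NQ above Luc and the library labelled ΔTM. For PSMC1 the ratio of 3NQ to Luc was only 0.0033.

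The caps that replace or compete with the regulatory particle also differed in order. PSME1 and PSME2 encode the α and β chains of PA28, an interferon-inducible cap. PSME1 had an FPKM of 110.2, 92.4, 104 and 114, with WT lowest at a ratio of −0.25, and PSME2 79.9, 73.2, 77.6 and 80.6, with a ratio of −0.12. PSME2 was 0.726, 0.793, 0.747 and 0.704 times PSME1.

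PSME3 encodes PA28γ, the nuclear cap, and had an FPKM of 167, 179, 190.3 and 165, highest in 3NQ with a ratio of 0.19. It was 1.51, 1.93, 1.83 and 1.44 times PSME1, so that the share of the nuclear cap's transcript was larger in WT and 3NQ than in the other libraries. PSME3 overlaps BECN1 on the opposite strand over 8966 bases. PSME4 (PA200) had 44.9, 47.1, 40.9 and 41.8, and PSMF1 (PI31), first described as an inhibitor of the core, 115, 127, 125 and 106.

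PSMC3IP (HOP2; ENSG00000131470, chromosome 17 from 40724333 to 40729849 on the minus strand), which acts in DNA strand exchange, had an FPKM of 10.4 (Luc), 6.91 (WT), 10.2 (3NQ) and 10.8 (library labelled ΔTM). WT stood apart from the others, which lay between 10.2 and 10.8, and the ratio of WT was −0.52 to Luc, −0.50 to 3NQ and −0.58 to the library labelled ΔTM, where the level was 1.49 times that of WT on this scale, just under the threshold. That ratio passed the threshold with a pseudocount of 0.1 (1.56-fold) and after scaling by median ratios (1.54-fold) or upper quartiles (1.53-fold). The gene nearest to the threshold was thus the 1 member outside the proteasome. The level is low, and with a pseudocount of 5 the ratio of WT to Luc was −0.37.

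The genes lay on 17 chromosomes, with 8 each on chromosomes 14 and 17. PSME1 and PSME2 are near neighbours on chromosome 14, as are PSMB5 and PSMB11, of which the first had its lowest FPKM at 163 and the second was listed at 0. Spans of 19 members overlapped another entry of the table.

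A list of 30 other genes of the pathway was set beside the members, of which 29 passed the filter (DDI1 was listed at 0). None of the 29 differed by 1.5-fold from Luc in any library, beside shares of 6.7%, 4.34% and 3.11% among all entries, at which 29 genes would hold only a few. Their median ratios were 0.033 (WT), 0.060 (3NQ) and −0.012 (library labelled ΔTM). NFE2L1, the factor described above, had an FPKM of 220.2, 238, 233 and 188, with ratios of 0.11, 0.083 and −0.23. It was lowest in the library labelled ΔTM, where 26 members were at their highest. A link between its transcript and theirs was not tested.

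Components outside the symbol rule ranged widely in level, from PAAF1, a base chaperone with an FPKM of 5.54, 4.60, 6.51 and 6.64, to SHFM1, the small lid subunit, with 132, 135, 126 and 138. POMP, the chaperone that matures the β ring, had an FPKM of 105, 120.3, 109 and 133. ADRM1, the ubiquitin receptor Rpn13, had 74.0, 70.2, 79.5 and 88.1. PAAF1, SHFM1, POMP and ADRM1 were all highest in the library labelled ΔTM, POMP by a ratio to Luc of 0.34. The other components listed were not. Of the deubiquitinases that visit the particle, UCHL5 had 54.6, 47.2, 56.3 and 47.5 and USP14 67.1, 66.0, 70.2 and 63.6, both highest in 3NQ and next in Luc.

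UFD1L, a cofactor of the segregase p97, had an FPKM of 135, 128, 140.3 and 190.2, highest in the library labelled ΔTM with a ratio to Luc of 0.50, and was singled out after its values were seen.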

How the data were processed

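Poly(A) RNA of 4 MKN28 lines was sequenced, 1 library per group. The authors removed low-quality reads, aligned the rest to GRCh37 by TopHat and deposited FPKM values per Ensembl gene, made by Cufflinks 2.1.1, with non-coding regions masked and corrections for multi-mapped reads and fragment bias. Counts were not used here, so the depth behind each value is unknown and no interval is given.

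Members were found by symbol, taking the row with the highest mean FPKM where a symbol repeats. Log2 ratios used a pseudocount of 1, on entries that reached an FPKM of 1, and a threshold of 1.5-fold, with no test. Python 3.11.15, numpy 2.4.6, pandas 2.3.3 and matplotlib 3.10.9 were used, and the ratio and call steps were tested on simulated data. Members, pathway genes and motifs were chosen with earlier results of these data known. Every member is named, and all FPKM are given for those with the widest, narrowest, highest or lowest values and for active subunits, chaperones and caps. The planned protein comparison was not made, as no protein sequences were used here. Alternatives were other pseudocounts, filters, thresholds, scalings and handling of repeated symbols. Some genes of the pathway list are not reported singly here.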

Additional observations from a re-analysis of the deposited data

How the results depend on the processing

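The count of members past the threshold against Luc was 0 in each library with a threshold of 2-fold, a pseudocount of 0.1 or 5, all entries unfiltered, a minimum FPKM of 5 or (chosen after seeing the data) 30, scaling by median ratios or by upper quartiles, repeated symbols summed, and the somatic proteasome alone. Without a pseudocount (chosen after seeing the data) it was 1 in WT, PSMC3IP. In the same settings, also run after seeing the data for the pairs without Luc, the count for WT against the library labelled ΔTM was 1, again PSMC3IP, with a pseudocount of 0.1 or none and under both scalings, and 0 otherwise, whereas the other pairs had 0 throughout. Summed FPKM in place of medians moved the core assembly genes in WT from −0.16 to −0.27 and the α ring in the library labelled ΔTM from 0.059 to −0.099, because the abundant PSMA4 and PSMA1 were below Luc there. Among single members, PSMC3IP in WT moved to −0.37 with a pseudocount of 5, and PSMG2 to −0.38 in WT and −0.13 in 3NQ when summed with the overlapping entry, a choice made after seeing the data. The other medians of members and subcomplexes moved by less than 0.1 on the log2 scale, the tolerance used because there are no replicates. That tolerance is wider than the medians of the members against Luc, so it cannot show that their sign or size held. After scaling by median ratios these medians were −0.058 (WT), 0.036 (3NQ) and 0.12 (library labelled ΔTM). Before scaling, that of 3NQ was −0.0014 and that of the library labelled ΔTM 0.055. The median of the members minus that of all entries was −0.061 (WT), 0.038 (3NQ) and 0.12 (library labelled ΔTM) after scaling by median ratios. By upper quartiles it was −0.063, 0.037 and 0.12. The unknown depth and the single libraries limit every value here, and no library could be left out. No paired analysis was possible because each group has 1 library.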

Other observations

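Several neighbours that overlap members had values of their own. CEP76, a centrosomal gene that overlaps PSMG2 on the opposite strand over 352 bases, had an FPKM of 13.1 (Luc), 6.35 (WT), 9.01 (3NQ) and 8.74 (library labelled ΔTM), so that Luc was the highest for it as for PSMG2. COPB1, a coat protein gene that overlaps PSMA1 on the same strand over 6245 bases, had 102 (Luc), 129.9 (WT), 102 (3NQ) and 99.9 (library labelled ΔTM), and its order was not that of PSMA1. FTSJ3, which overlaps PSMC5 on the opposite strand over 2861 bases, had 19.3, 26.5, 23.6 and 21.5 in the same order, while PSMC5 lay between 124.6 and 126.4. These genes were chosen after the overlaps were seen.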
